A study of Mus musculus with 48 samples.

Results

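Methylated DNA of the jejunum, the middle section of the small intestine, was compared between 7 mice labelled GermFree and 5 mice labelled ConvR, which the study's design calls conventionalized. Germ-free mice are raised without microorganisms, and conventionalized mice are formerly germ-free animals given a microbiota. The 12 libraries were all those labelled Jejunum among the 48 of the study, which took 4 sections from each of 12 mice, and every mouse gave 1 jejunum library. Strain, age, sex and the length of colonisation are not stated in the labels used here. The study is about genes that activate natural killer lymphocytes, and its title places the change in intestinal cells of germ-free mice.

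Fragments carrying methylated CpG pairs were captured with a methyl-CpG-binding domain (MBD) and sequenced, so the read count of a region rises with its methylation, with its number of CpG pairs and with its number of copies in the genome. Natural killer cells weigh activating against inhibitory receptors. In mice many of these are the Ly49 receptors, encoded by the Klra genes, which bind class I histocompatibility molecules. NKG2D is another activating receptor, and its ligands, encoded by the Raet1, H60 and Ulbp1 genes, appear on stressed epithelial and other cells. The deposited files hold counts over 95882 regions. Levels below are CPM, counts divided by the TMM-adjusted library total, and a log2 difference is GermFree minus ConvR.

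Of the genes that the results turn on, 13 had a promoter window in a RefSeq table (build GRCm38.p6, 250 bases before to 50 after the gene start), 16 windows in all, and 5 of these lay inside a region that differed between the models. Of the 5, the window of Pxmp4 (9 CG pairs) is not printed, because its region is not described below. In the sequences each CG, the pair that the capture needs when methylated, is in capitals and all other bases are in lower case. The 4 printed windows belong to genes described below, where the captured region runs across the gene start. They lie at chr1:195176670-195176969 (minus strand, Cr2), chr6:130067222-130067521 (minus strand, Klra4), chr6:130193063-130193362 (minus strand, Klra9) and chr7:43177340-43177639 (plus strand, Zfp936).
Cr2: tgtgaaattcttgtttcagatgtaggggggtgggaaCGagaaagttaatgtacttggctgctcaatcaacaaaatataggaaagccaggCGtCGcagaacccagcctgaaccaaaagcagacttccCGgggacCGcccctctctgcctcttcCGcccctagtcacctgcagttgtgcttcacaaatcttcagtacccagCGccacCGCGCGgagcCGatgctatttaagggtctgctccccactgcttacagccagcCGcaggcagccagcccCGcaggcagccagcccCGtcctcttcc
Klra4: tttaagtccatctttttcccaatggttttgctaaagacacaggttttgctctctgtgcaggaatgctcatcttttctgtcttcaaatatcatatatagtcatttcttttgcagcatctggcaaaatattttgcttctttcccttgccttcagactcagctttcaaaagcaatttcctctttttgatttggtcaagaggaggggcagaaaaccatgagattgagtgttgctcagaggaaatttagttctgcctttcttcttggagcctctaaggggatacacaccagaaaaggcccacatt
Klra9: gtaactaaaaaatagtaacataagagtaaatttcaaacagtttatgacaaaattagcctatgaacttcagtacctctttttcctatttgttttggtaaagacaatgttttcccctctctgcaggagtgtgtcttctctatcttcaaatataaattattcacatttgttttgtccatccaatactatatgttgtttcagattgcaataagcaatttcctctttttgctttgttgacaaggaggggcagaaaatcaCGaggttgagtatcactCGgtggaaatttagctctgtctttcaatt
Zfp936: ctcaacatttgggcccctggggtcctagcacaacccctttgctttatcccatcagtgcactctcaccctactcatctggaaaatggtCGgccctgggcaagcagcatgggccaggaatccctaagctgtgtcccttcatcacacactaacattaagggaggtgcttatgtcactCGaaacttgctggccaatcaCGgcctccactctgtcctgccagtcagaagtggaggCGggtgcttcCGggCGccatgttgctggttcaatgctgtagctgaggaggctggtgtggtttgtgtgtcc
The Cr2 window holds 14 CG pairs, the Zfp936 window 6, the Klra9 window 2 and the Klra4 window 0. Of all 32851 RefSeq windows, 94.6% hold at least 1 CG (the 2 letters read on either strand), the median is 7, and 23.3% hold 2 or fewer. Of the 281 regions that differed, 13 overlapped a promoter window, 12 among the 249 higher regions (4.82%) and 1 among the 32 lower ones (3.13%), against 2.80% of the tested regions.

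Library totals ran from 1571642 (ConvR mouse 1) to 2560175 counts (ConvR mouse 2), so that 1 CPM stood for 1.56 to 2.55 reads. The median count per region was 11 to 19. The 3 shallowest libraries were ConvR mouse 1 (1571642 counts), GermFree mouse 2 (1636264) and ConvR mouse 3 (1670456). Over all regions libraries resembled those of the other model as much as those of their own. The median correlation of a library with those of its own model was 0.824 to 0.852, and with those of the other model 0.819 to 0.858. The section label has no differing region to be checked against. Over all 48 libraries edgeR called 0 of 95876 regions between jejunum and the other sections (4473 with an unadjusted p under 0.05), and DESeq2 also called 0 (2734). Among genes of regional identity, Gata4, a transcription factor gene of the upper intestine, had the region with the smallest p (edgeR adjusted p = 0.99997).

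GermFree jejunum had more captured DNA than ConvR jejunum at few and closely packed places. With edgeR's quasi-likelihood test and Benjamini-Hochberg adjustment, 281 of 81883 tested regions (0.343%) passed an adjusted p of 0.05. Of these 249 (0.304%) were higher and 32 (0.0391%) lower in GermFree mice, while the median log2 difference of all tested regions was -0.00 and 4387 (5.36%) had an unadjusted p under 0.05. This split holds for the deposited regions only. Each of them is named after GermFree, and the libraries used to define them are unknown. Whether their choice favours regions higher in GermFree mice was not tested. Where passing regions were joined across gaps of at most 500 kb, 8 stretches with 5 or more of them held 233 of the 281, while these stretches hold 0.366% of all regions. A pseudogene was the gene assigned to 47.8% of the higher regions against 5.89% of tested regions, and 60.6% lay outside genes against 27.8%. All 7 GermFree mice lay above all 5 ConvR mice in 67 of the 249 higher regions and below them in 3 of the 32 lower ones, where 0.2% and 0.111% of all tested regions show the same order. The labels name sections of the intestine and no cell type, and they do not state the strain. A change of methylation within cells, a change in the mixture of cells and a difference between mice in the number of genome copies therefore cannot be told apart. Levels of single members of gene families are uncertain, because the sources used here do not say how reads that match several copies were placed.

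**Figure D1:**
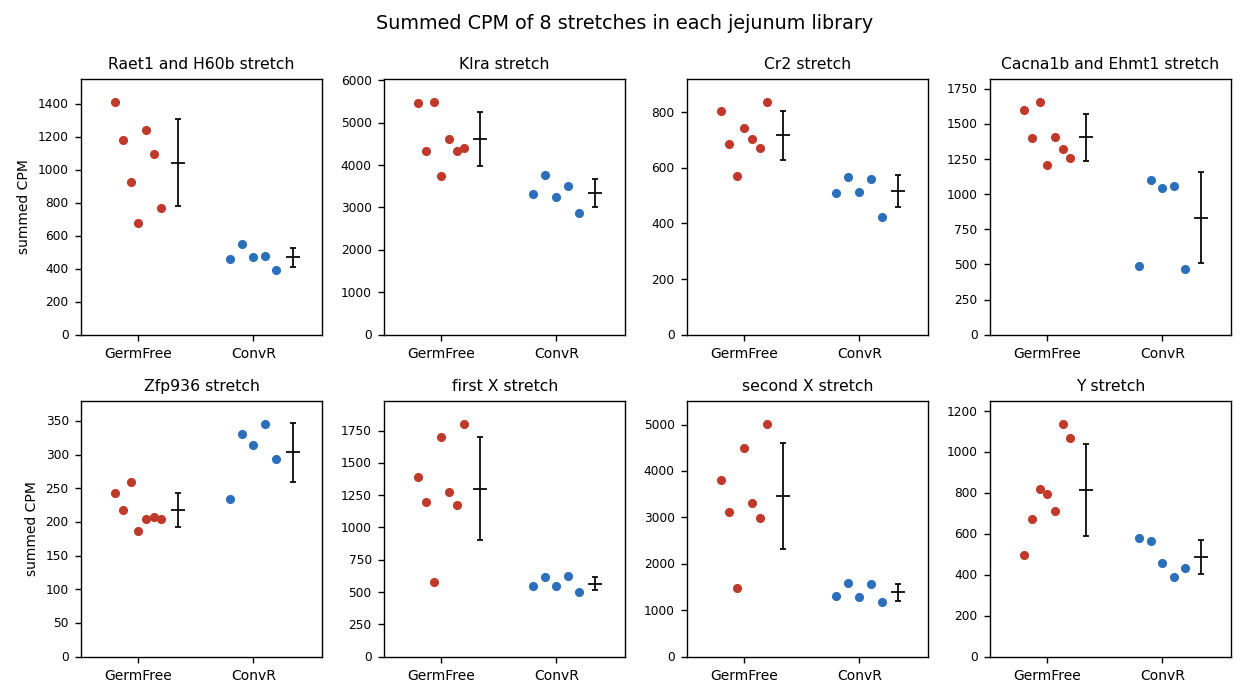
Summed CPM of all regions of each of 8 stretches (vertical axis, from 0) in each jejunum library, GermFree mice (red, n = 7) left of ConvR mice (blue, n = 5), with the mean and SD as black bars. GermFree mouse 3 sits at 575 in the first X stretch, among the ConvR mice, and ConvR mice 1 and 5 form a low pair of 488 and 469.5 in the Cacna1b and Ehmt1 stretch.

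Among the ligands of NKG2D, H60b and both Raet1 genes with a region were higher in GermFree jejunum, and the 2 ligand genes that lie elsewhere did not pass. Of 14 regions at H60b, Raet1e and Raet1d, 13 passed, all higher, and the list of ligands as a whole had 13 of 20 regions passing and a median log2 difference of 0.91. Over all tested regions 0.304% were higher. The 13 lie in 1 stretch of 249 kb that was itself formed from passing regions, so they are not independent of each other. H60b encodes a high-affinity ligand. Its strongest region (chromosome 10, 22278837 to 22288912) gave 86.9, 154 and 198 CPM as the lowest, median and highest of the GermFree mice, against 42.6, 52.2, 33.6, 38.3 and 40.8 CPM in ConvR mice 1 to 5. The lowest GermFree mouse was thus well above the highest ConvR mouse (log2 1.77, SE 0.12; edgeR adjusted p = 7.46e-29). A further 3 regions passed at this gene, with log2 differences down to 0.76, and all 4 also passed with DESeq2.

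Raet1e and Raet1d encode RAE-1 proteins, which are cell surface ligands with little expression in healthy adult tissue. All 6 Raet1e regions passed in edgeR, with log2 differences between 0.85 and 1.35, but DESeq2 called 3 of them. The region from 22184272 to 22185579 inside Raet1e had 11.4, 18.3 and 19.7 CPM as lowest, median and highest in GermFree mice, against 4.06, 6.63, 6.97, 7.34 and 7.42 CPM in the ConvR mice. The groups did not overlap there (log2 1.35, SE 0.19; edgeR adjusted p = 3.03e-08), and they overlapped by 1 GermFree mouse in the region from 22160236 (16.4 CPM in GermFree mouse 4, under the 24.9 of ConvR mouse 2), whose DESeq2 adjusted p was 0.576. At Raet1d 3 of 4 regions passed, 1 of them with DESeq2. Its region from 22355369 to 22361158 gave 26.9, 43.9 and 64.6 CPM in GermFree mice (lowest, median, highest), against 22.997, 26.9, 30.4, 20.5 and 21.3 CPM in ConvR mice, where GermFree mouse 4 fell inside the ConvR range (log2 0.91, SE 0.13; edgeR adjusted p = 2.95e-08, DESeq2 adjusted p = 0.0745).

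Ulbp1, which encodes the ligand MULT1 and lies on another part of the same chromosome, had 4 tested regions with log2 differences of 0.03 to 0.60 and none passed, the closest at an edgeR adjusted p of 0.867. H60c, a ligand gene mainly known from skin, also had 0 of 2 passing (log2 -0.26 and -0.06). Over the whole stretch from Raet1e to beyond Raet1d (chromosome 10, 22149251 to 22398332) 25 of 26 regions passed (18 with DESeq2). The summed level was 1044 ± 264 CPM in GermFree mice, against 469 ± 56.2 in ConvR mice (SD, n = 7 and 5). GermFree mice 4 (678) and 7 (768) were the lowest of their model and still above the highest ConvR mouse (548).

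**Figure D2:**
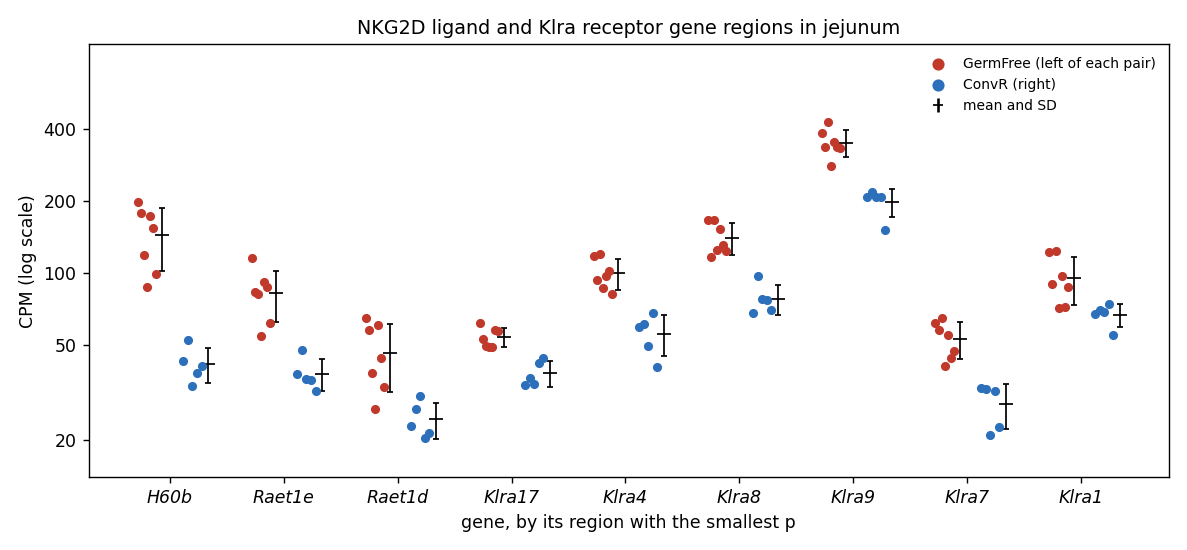
CPM on a log axis for the region with the smallest p at each ligand gene and each Klra gene that passed, GermFree mice (red) left of ConvR mice (blue) in each pair, with mean and SD. H60b stands apart with a gap between 86.9 CPM, its lowest GermFree mouse, and 52.2 CPM, its highest ConvR mouse, while Raet1d and Klra1 overlap.

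The Klra genes were higher in GermFree mice at both activating and inhibitory receptors. Of 11 Klra genes with a tested region, 6 had a region that passed, and 10 of their list's 23 regions did, all higher, with a median log2 difference of 0.49. Over all tested regions 0.304% were higher. The 10 also lie in 1 stretch formed from passing regions and are not independent of each other. In 8 of those 10 regions every GermFree mouse was above every ConvR mouse, an order shown by 0.2% of all tested regions. Choosing regions that passed as higher favours this order. DESeq2 called 7 of the 10, as did edgeR without ConvR mice 1 and 3. Klra4 and Klra8 encode the activating receptors Ly49D and Ly49H. The Klra4 region across the gene start printed above (chromosome 6, 130059373 to 130070570) gave 81.1, 96.8 and 119 CPM (lowest, median, highest) in GermFree mice, against 59.5, 60.9, 49.4, 67.7 and 40.3 CPM in ConvR mice, with no overlap (log2 0.83, SE 0.10; edgeR adjusted p = 2.41e-10). At Klra8, which in mice of some strains recognises a protein of cytomegalovirus, the wide region from 130109734 to 130126450 gave 116, 130.0 and 166 CPM in GermFree mice, against 67.6, 96.5, 77.9, 76.6 and 70.0 CPM in ConvR mice, again with no overlap.

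Klra9, Klra7 and Klra1 encode the inhibitory receptors Ly49I, Ly49G and Ly49A. The Klra9 region across the gene start (130187367 to 130211212) gave 278, 336 and 424 CPM (lowest, median, highest) in GermFree mice, against 207, 216, 207, 206 and 151 CPM in ConvR mice, so that 4 of the ConvR mice were nearly equal and mouse 5 lay below them. Klra7 (130214425 to 130219298) gave 40.7, 55.0 and 64.9 CPM in GermFree mice against 33.1, 32.7, 20.9, 32.0 and 22.7 CPM in ConvR mice (log2 0.88, SE 0.12; edgeR adjusted p = 2.5e-09). The difference was smaller at Klra1 (130364074 to 130369924), with 71.0, 89.8 and 124 CPM in GermFree mice against 67.0, 70.0, 68.4, 73.9 and 54.7 CPM in ConvR mice (log2 0.49, SE 0.10; edgeR adjusted p = 0.00191), and 2 GermFree mice were inside the ConvR range. Klra17, which encodes Ly49Q, a receptor of plasmacytoid dendritic cells, gave 48.9, 53.0 and 61.7 CPM in GermFree mice against 33.8, 36.5, 34.2, 42.0 and 44.0 CPM in ConvR mice in its 1 region (log2 0.49, SE 0.11; edgeR adjusted p = 0.00351). The Klra1 call was lost without ConvR mouse 5 (adjusted p = 0.0533 in edgeR) and with DESeq2 (0.0701), and the Klra17 call without ConvR mice 1 and 3 (edgeR adjusted p = 0.346).

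Within the same stretch Klra3, Klra5, Klra10, Klra13-ps and Klra14-ps had tested regions and none passed. Their log2 differences ran from -0.19 to 0.58, and the closest was a Klra10 region with 21.4 ± 4.14 CPM in GermFree mice and 15.5 ± 3.12 in ConvR mice (log2 0.49, SE 0.15; edgeR adjusted p = 0.237). Beyond the end of Klra1 at 130386874 a further 22 regions of the stretch passed, 21 of them higher, at predicted genes such as Gm6600, LOC115490339 and Gm27047. The 21 had a median log2 difference of 0.49, against 0.82 for the 12 passing regions up to that point. The stretch as a whole (129848474 to 131379628) held 34 passing regions of 91 tested, of which 21 passed with DESeq2 and 16 without ConvR mice 1 and 3. Its summed level was 4621 ± 637 CPM in GermFree mice, against 3343 ± 337 in ConvR mice (SD, n = 7 and 5), and GermFree mouse 4 (3738) lay under the highest ConvR mouse (3772). The 1 lower region, at Ybx3, a gene of a nucleic acid binding protein at the far end, was high in ConvR mice 1 and 3 (35.8 and 48.2 CPM).

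Of the other natural killer genes that were listed none had a passing region, and with 0.343% of all tested regions passing, a count of 0 in lists this short says nothing particular about them. Of 19 further receptor and adaptor genes with a tested region none passed, with a median log2 difference of -0.03 over 39 regions, and of 19 cytokine and effector genes none passed (median 0.01 over 44 regions). In the first of these lists the smallest p values were those of Cd244a, a receptor of natural killer and T cells, with 7.11 ± 2.52 CPM in GermFree mice and 10.4 ± 1.83 in ConvR mice, and of Cd247, the zeta chain of activating receptors, with 16.2 ± 2.20 CPM in GermFree and 12.98 ± 0.978 in ConvR mice (edgeR adjusted p = 0.762 and 0.899). In the second they were those of Ifng, the interferon gamma gene, with 9.05 ± 1.06 CPM in GermFree and 12.7 ± 3.02 in ConvR mice, and of the chemokine gene Ccl5, with 10.1 ± 1.29 CPM in GermFree and 13.6 ± 2.53 in ConvR mice (edgeR adjusted p = 0.786 and 0.905). In all, 24 of 29 gene lists had no passing region among 1501 tested, at medians between -0.09 and 0.13. These 24 include the genes of nutrient absorption, microbial sensing, antimicrobial defence, interferon response, T cell signalling, the barrier, DNA methylation and imprinting. The closest in them was a region shared by the complement protease genes C1ra and C1s1 (60.3 ± 12.7 CPM in GermFree and 45.7 ± 5.29 in ConvR mice, edgeR adjusted p = 0.0874).

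Cr2 encodes complement receptor 2, through which B cells and follicular dendritic cells bind antigen coated with complement, and it was the 1 gene with passing regions among 17 tested genes of B cells and plasma cells. Of its 5 regions 3 passed, and 1, the region across the gene start, also did with DESeq2. The region across the gene start (chromosome 1, 195163667 to 195178371), which holds the Cr2 window shown above, gave 78.3, 85.4 and 104 CPM (lowest, median, highest) in GermFree mice, against 42.6, 69.2, 55.1, 70.3 and 47.7 CPM in ConvR mice. The groups did not overlap (log2 0.64, SE 0.10; edgeR adjusted p = 3.33e-06). In the region from 195156822, not called by DESeq2 (adjusted p = 0.603), they did not overlap either (26.5 ± 2.85 CPM in GermFree and 18.7 ± 2.747 in ConvR mice), while in that from 195149833, also not called by DESeq2 (adjusted p = 0.492), they did (31.9 ± 4.90 CPM in GermFree and 22.8 ± 5.86 in ConvR mice). Most of the stretch, 9 of its 12 passing regions, lay beyond Cr2 near Gm29726 and the pseudogene Vmn2r-ps1. The sums over the stretch were 717 ± 88.7 CPM in GermFree and 515 ± 57.7 in ConvR mice, with GermFree mouse 3 (570.3) just above ConvR mouse 2 (568).

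On chromosome 2 the neighbouring ends of Cacna1b, the pore subunit gene of the neuronal N-type calcium channel, and of Ehmt1, a histone H3 lysine methyltransferase gene, were higher in GermFree mice. From 24661151 to 24802813, 11 of 12 regions passed in edgeR with log2 differences of 0.63 to 0.84. DESeq2 called 1 of the 11, an Ehmt1 region (24791226 to 24795060, adjusted p = 0.000548), and lost 10, while all 11 passed without ConvR mice 1 and 3. The ConvR mice fell into 2 levels. Summed over the stretch, the GermFree mice had 1209, 1397 and 1653 CPM (lowest, median, highest), against 488 and 469.5 CPM in ConvR mice 1 and 5 and 1102, 1041 and 1058 CPM in ConvR mice 2, 3 and 4. Mice 1 and 5 were also the lowest ConvR mice in 4 of 4 sections. In the region from 24718919 to 24738600 inside Cacna1b the levels were 202, 226 and 266 CPM in GermFree mice, against 69.0, 171, 164, 157 and 76.5 CPM in ConvR mice, with a smaller gap to the upper 3 ConvR mice than between the ConvR mice themselves (log2 0.84, SE 0.11; edgeR adjusted p = 9.9e-10, DESeq2 adjusted p = 0.140). The 6 tested Cacna1b regions with smaller coordinates than the stretch did not pass, with log2 differences between -0.43 and 0.15, nor did 3 Ehmt1 regions on the other side (-0.21 to 0.26).

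The X chromosome held 144 of the 249 higher regions (57.8%) against 0.419% of the tested regions, and 140 of them lay in 2 stretches with genes of the multicopy Btbd35f and Spin2 families. The share of counts on the X chromosome was 0.787% ± 0.132 in GermFree mice, against 0.524% ± 0.0409 in ConvR mice (SD, n = 7 and 5), higher than all ConvR mice in 6 of 7 (exact two-sided permutation p = 0.00631, adjusted over 6 shares p = 0.0379). That adjusted p was 0.0727 without ConvR mouse 1 or 4 and 0.0909 without ConvR mouse 3 or 5. The 2 stretches made up 0.452% ± 0.149 of the counts in GermFree and 0.184% ± 0.0213 in ConvR mice, while the remaining X regions gave 0.335% ± 0.0239 in GermFree and 0.340% ± 0.0226 in ConvR mice. The other 5 shares had p values of 0.491 or more, the Y chromosome with 1.63% ± 0.167 in GermFree and 1.70% ± 0.124 in ConvR mice.

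**Figure D3:**
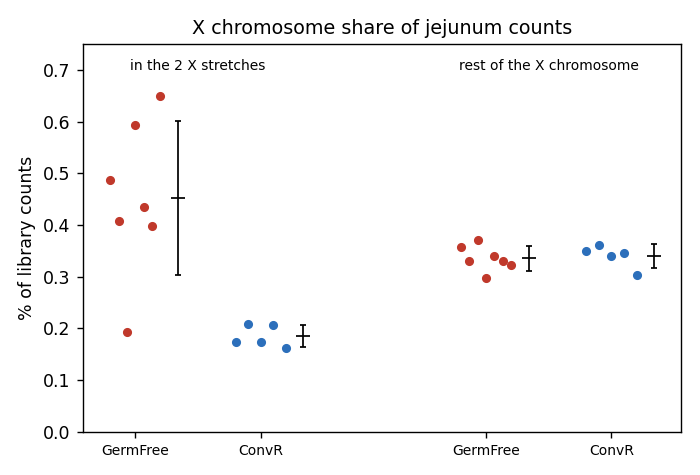
Percent of a jejunum library's counts in the 186 regions of the 2 X stretches (left pair) and in the other 188 X regions (right pair), GermFree (red, n = 7) left of ConvR (blue, n = 5), with mean and SD. Outside the stretches the models overlap fully, and within them GermFree mouse 3 (0.192%) sits among the ConvR mice.

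GermFree mouse 3 did not follow the other GermFree mice on the X chromosome. In the first stretch (3051711 to 5392838, 51 of 68 tested regions passing, 29 with DESeq2) the GermFree mice had 575, 1271 and 1798 CPM as lowest, median and highest, against 544, 614, 544, 626 and 501 CPM in ConvR mice. In the second (31130368 to 34492406, 89 of 108 passing, 59 with DESeq2) the GermFree mice had 1479, 3317 and 5007 CPM, against 1306, 1591, 1286, 1571 and 1181 CPM in ConvR mice. The lowest was GermFree mouse 3 in both, inside the ConvR range, and GermFree mice 4 and 7 were the highest, an order found in 4 of 4 sections. Of the 140 higher regions in these stretches, mouse 3 was at or under the highest ConvR mouse in 116. The region near Gm46672 (34319678 to 34331183) shows the spread among single mice, with 30.6, 128 and 215 CPM in GermFree mice, against 22.3, 40.2, 29.8, 40.4 and 25.5 CPM in ConvR mice (log2 2.10, SE 0.15; edgeR adjusted p = 5.89e-28). The library of mouse 3 did not behave in this way at H60b (119 CPM) or Klra9 (424 CPM), where it was well inside or at the top of its model. At the Cr2 stretch on chromosome 1, however, mouse 3 was also the lowest GermFree mouse in 4 of 4 sections. There it lay inside the ConvR range in ileum (496 CPM) and colon (581 CPM), and GermFree mice 4 and 7 were the highest in 2 sections.

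Another order of mice held at the ends of both sex chromosomes. Near the end of the Y chromosome (90717480 to 90811171) 5 of 10 regions passed, none of them with DESeq2, and the sums were 495, 795 and 1135 CPM (lowest, median, highest) in GermFree mice against 578, 566, 459, 390.2 and 431 CPM in ConvR mice. GermFree mouse 1 was the lowest and inside the ConvR range, and mice 6 and 7 were the highest. Near the end of the X chromosome 4 regions passed, 2 at Mid1, a microtubule-associated ubiquitin ligase gene that spans the pseudoautosomal boundary in mice, and 2 at Erdr1. The Mid1 region from 169978151 gave 54.5, 96.8 and 162 CPM in GermFree mice against 68.3, 78.3, 58.3, 51.4 and 70.5 CPM in ConvR mice (log2 0.74, SE 0.11; edgeR adjusted p = 6.03e-07, DESeq2 adjusted p = 0.916). Mouse 1 was again the lowest and mouse 6 the highest. At the Erdr1 region from 170011225 all 7 GermFree mice (42.0 to 80.2 CPM) lay above all ConvR mice (21.5 to 37.9 CPM).

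Outside the stretches 23 regions were higher. At St6galnac1, which encodes a sialyltransferase that makes the sialyl-Tn sugar of mucins, 1 of 3 regions passed (chromosome 11, 116764275 to 116768317), with 53.7, 65.7 and 72.8 CPM in GermFree mice, against 31.1, 38.1, 50.1, 39.3 and 41.3 CPM in ConvR mice and no overlap (log2 0.66, SE 0.11; edgeR adjusted p = 2.58e-06). Next to Ceacam15, a gene of the carcinoembryonic antigen family, and its neighbour Ceacam-ps1, 3 regions passed. The widest of them (chromosome 7, 16649368 to 16661401) gave 78.9, 126 and 153 CPM in GermFree mice, against 66.3, 76.2, 93.2, 80.2 and 60.3 CPM in ConvR mice, where GermFree mouse 2 alone overlapped. The broad region near the major urinary protein gene Mup17 (chromosome 4, 61550772 to 61581947) had 198, 215 and 262 CPM in GermFree mice, against 152, 175, 153, 165 and 146 CPM in ConvR mice without overlap, and Slc37a3, a sugar phosphate transporter gene, had 26.9, 33.6 and 41.6 CPM in GermFree mice against 18.3, 21.1, 25.3, 25.7 and 24.6 CPM in ConvR mice (edgeR adjusted p = 0.000101 and 0.00239). The Slc37a3 call was lost with DESeq2 (adjusted p = 0.0798).

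Captured DNA was lower in GermFree mice at 32 regions. These are described in sets, formed by place and by which mice were highest. The first set is a stretch of 6 regions, all passing, in and beside Zfp936, a gene of a zinc finger protein (chromosome 7, 43146557 to 43206046). Its summed level was 218 ± 25.1 CPM in GermFree mice, against 303 ± 43.2 in ConvR mice (SD, n = 7 and 5), and GermFree mice 1 (243) and 3 (259) lay above ConvR mouse 1 (234). The region from 43151671 to 43164916 gave 55.8, 67.2 and 86.9 CPM in GermFree mice, against 79.8, 103, 98.2, 105 and 91.8 CPM in ConvR mice (log2 -0.50, SE 0.10; edgeR adjusted p = 0.000361). The region across the gene start (43172523 to 43181633), which holds the Zfp936 window shown above, gave 31.7, 38.1 and 47.7 CPM in GermFree mice, against 33.1, 59.6, 52.0, 65.0 and 56.5 CPM in ConvR mice, and overlapped through ConvR mouse 1.

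A second set holds 10 regions outside this stretch in which ConvR mice 1 and 3 were not the highest pair. Their sums were 165 ± 10.2 CPM in GermFree mice and 268 ± 19.1 in ConvR mice (SD, n = 7 and 5). The regions were chosen as lower in GermFree mice, which favours this gap. In Sos2, a guanine nucleotide exchange factor gene of Ras signalling (chromosome 12, 69653729 to 69654663), GermFree mice had 26.3, 36.1 and 40.3 CPM, against 59.5, 53.9, 64.6, 67.1 and 53.3 CPM in ConvR mice, and all 7 were below all ConvR mice (log2 -0.80, SE 0.11; edgeR adjusted p = 2.35e-09). Tmem67, a gene of a protein at the base of cilia, gave 7.72, 10.3 and 15.8 CPM in GermFree mice, against 18.9, 17.4, 17.7, 16.8 and 18.1 CPM in ConvR mice, with no overlap either, although its call was lost with DESeq2 (adjusted p = 0.208) and without ConvR mice 1 and 3 (edgeR adjusted p = 0.115). The region at the pseudogene Gm46188 gave 9.86, 12.7 and 25.1 CPM in GermFree mice, against 28.4, 32.3, 38.7, 35.1 and 19.9 CPM in ConvR mice, and GermFree mouse 3 alone overlapped. At Ppp2r2b, a phosphatase regulatory subunit gene, both models held mice at 2 levels: GermFree mice 6 and 7 (24.2 and 27.2 CPM) and ConvR mice 2, 4 and 5 (32.3, 22.6 and 23.2 CPM) were high, and the 7 others lay between 2.85 and 6.76 CPM (edgeR adjusted p = 0.0375, DESeq2 adjusted p = 0.99998).

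A small RNA gene was assigned to 4 of the 32 lower regions (12.5%), against 1.04% of tested regions. Neighbouring regions with genes of valine transfer RNAs fell on chromosome 13. The region of n-TVcac2 (23407402 to 23412990) gave 49.1, 61.4 and 67.0 CPM in GermFree mice, against 96.7, 87.0, 95.1, 93.9 and 84.8 CPM in ConvR mice, with all 7 below (log2 -0.59, SE 0.10; edgeR adjusted p = 4.23e-06). That of n-TVaac2, a member of the second set (23400853 to 23404847), gave 39.9, 46.0 and 57.5 CPM in GermFree mice against 71.7, 70.8, 59.6, 70.8 and 55.6 CPM in ConvR mice, with 5 of 7 below all ConvR mice (log2 -0.45, SE 0.10; edgeR adjusted p = 0.00628). Its call was lost with DESeq2 (adjusted p = 0.0822) and without ConvR mice 1 and 3 (edgeR adjusted p = 0.0726).

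In the third set, 16 regions that include n-TVcac2, the highest pair among all 12 mice was ConvR mice 1 and 3. The summed CPM of these regions was 172.99 to 331 in the GermFree mice, whose highest was mouse 2, against 563 and 656 in ConvR mice 1 and 3 and 273, 258 and 263 in ConvR mice 2, 4 and 5. At Rn7s2, which encodes 7SL RNA, GermFree mouse 2 had 31.7 CPM and the other GermFree mice 5.26 to 13.02, against 39.9, 10.4, 62.1, 6.29 and 12.98 CPM in ConvR mice 1 to 5. Near Zcchc14 it was 27.1 CPM in GermFree mouse 2 and 2.63 to 6.30 in the other GermFree mice, against 39.9, 4.97, 50.1, 3.67 and 6.95 CPM in ConvR mice. GermFree mouse 2 and ConvR mice 1 and 3 had the 3 shallowest libraries. GermFree mouse 3, the next shallowest (1746060 counts), had a summed level of 227 CPM in the third set. The part of depth in these values was not tested. Without ConvR mice 1 and 3, 1 of the 16, n-TVcac2, passed and 5 had a difference above 0. In the Zfp936 stretch 6 of 6 passed, and in the second set 4 of 10. Because the third set was defined by these mice being highest, its loss of calls without them follows largely from the grouping. DESeq2 called 4 of the 32 lower regions (1 in the third set, 1 at Zfp936 and 2 in the second set) and 143 of the 249 higher ones.

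**Figure D4:**
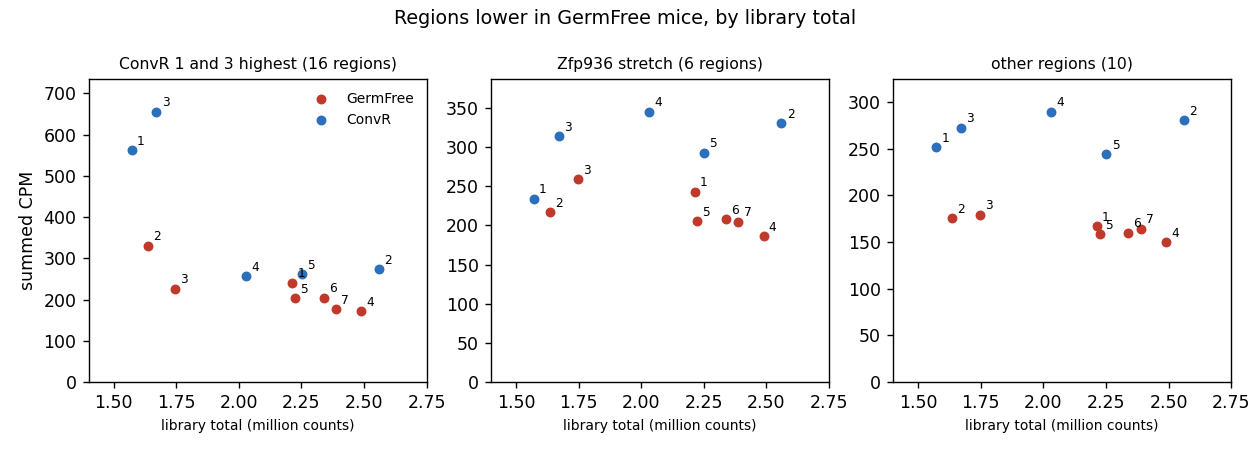
Summed CPM (vertical axes, from 0) of the 3 sets of lower regions against the total counts of the library, with GermFree mice in red, ConvR mice in blue and the mouse number beside each point. In the left panel ConvR mice 1 and 3, at 563 and 656 CPM and totals of 1571642 and 1670456 counts, stand above all others, and in the right panel the models do not overlap. Both patterns are favoured by how the regions were chosen and grouped.

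The difference between the models was set against that of the other sections of the same mice. In each of the 7 higher stretches the ratio of GermFree to ConvR was smaller in jejunum than in duodenum, ileum and colon. It was 2.23 in jejunum and 2.63 to 2.92 elsewhere at the Raet1 and H60b stretch, 1.38 and 1.66 to 1.83 at the Klra stretch, 1.39 and 1.55 to 1.75 at the Cr2 stretch, and 1.69 and 2.04 to 2.09 at the Cacna1b and Ehmt1 stretch. At the Raet1 and H60b, Klra, Cr2 and X stretches ConvR mouse 3 was the lowest ConvR mouse in every section except jejunum. At the Klra stretch it had 3257 CPM in jejunum, against 2009, 1915 and 2347 CPM in duodenum, ileum and colon. At the Cacna1b and Ehmt1 stretch and the Y stretch it was not the lowest in any section. The part of this mouse in the ratios was not tested. Of the 249 higher regions 219 had a smaller log2 difference in jejunum than the mean of the other sections, with medians of 1.16 in jejunum, 1.34 in duodenum, 1.27 in ileum and 1.43 in colon, although they were chosen for their difference in jejunum. For comparison, 4813 autosomal regions of 5 kb or more outside the stretches had a median difference of differences of -0.02, against -0.25 for the higher regions. It was below 0 in 54.4% of these 4813 regions, and in 48.9% of all 94544 autosomal regions outside the stretches. Of the 249 higher regions 226 lay in the stretches, so they are not independent of each other. Tested region by region, no difference between jejunum and the other sections passed. edgeR called 0 of 95876 (6489 with an unadjusted p under 0.05, or 6.77%; smallest adjusted p = 0.436), DESeq2 also called 0 (4140), and with the mouse as a block, which pairs the 4 libraries of an animal, edgeR called 0 (6958, or 7.26%; smallest adjusted p = 0.0777). Among the 281 passing regions the unadjusted p was under 0.05 in 45 without and 105 with this block. In simulated counts with the same dispersion for all regions, edgeR without the block called 6.1% of differences between sections of log2 0.5. It called 60.3% of those of log2 1, so the count of 0 does not show that smaller differences are absent.

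**Figure D5:**
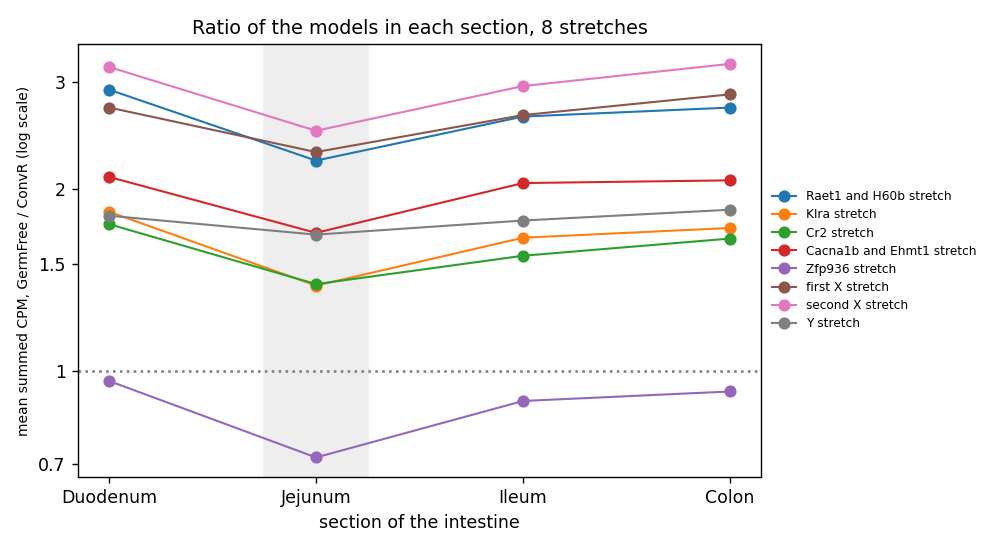
Mean summed CPM of GermFree mice divided by that of ConvR mice (log axis) for 8 stretches in the 4 sections, in the order along the intestine, with jejunum shaded and a dotted line at 1. All 8 lines dip in jejunum, so that 7 stretches are closest to 1 there while the Zfp936 stretch is farthest from it at 0.718.

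The calls in jejunum were set beside those in the other sections. Of the 249 higher regions 220 also passed in duodenum, 214 in ileum and 236 in colon, and 198 in all 3. In duodenum, ileum and colon 0.423%, 0.316% and 0.513% of tested regions were higher, and 0.463%, 0.365% and 0.542% passed in either direction. Of the 32 lower regions 2, 14 and 4 did so (0.0398%, 0.0491% and 0.0283% of tested regions), and 18 passed in jejunum alone, as did 8 higher ones. The medians of the 32 lower regions were below 0 in every section, at a log2 of -0.41 in duodenum, -0.79 in jejunum, -0.59 in ileum and -0.19 in colon, and a call in jejunum alone does not show a difference between sections. Because the mice are the same, these counts are not independent of each other. The Zfp936 stretch is the largest group among these 26 regions, with a ratio of 0.718 in jejunum, 0.961 in duodenum, 0.891 in ileum and 0.923 in colon. Its 6 regions had unadjusted p values of 0.0036 to 0.045 for the difference from the other sections (smallest edgeR adjusted p = 0.586, and 0.215 with the mouse as a block). These regions passed in jejunum and in no other section, and picking them for that favours small unadjusted p values here.

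Of the regions called in jejunum alone, 3 genes are described as examples, chosen after their values were seen. Epha4, an ephrin receptor gene (chromosome 1, 77382865 to 77386074), gave 15.9, 19.7 and 21.4 CPM in GermFree mice, against 10.1, 11.2, 7.60, 11.01 and 13.4 CPM in ConvR mice, with no overlap (log2 0.81, SE 0.16; edgeR adjusted p = 0.000503). Its log2 difference was -0.12 in duodenum, 0.22 in ileum and 0.00 in colon. Hap1, which encodes a partner of huntingtin in vesicle transport (chromosome 11, 100353387 to 100354612), gave 7.11, 9.41 and 12.8 CPM in GermFree mice, against 4.06, 6.21, 3.17, 6.29 and 5.56 CPM in ConvR mice, again with no overlap, and its log2 difference was 0.93 in jejunum and -0.02, -0.28 and -0.37 in duodenum, ileum and colon. Htra3, a serine protease gene, was lower, with 7.96, 9.05 and 13.02 CPM in GermFree mice, against 12.9, 14.5, 17.1, 16.3 and 17.6 CPM in ConvR mice (log2 -0.68, SE 0.17; edgeR adjusted p = 0.0334), a slight overlap at GermFree mouse 4, and differences of 0.11, 0.01 and 0.38 in the other sections. For these 3 genes the test against the other sections gave an edgeR adjusted p of 0.443, so a difference between sections was not detected. Their calls in jejunum also depended on the setting. Epha4 was lost without ConvR mice 1 and 3 (edgeR adjusted p = 0.0714), Hap1 with DESeq2 (adjusted p = 0.323) and without these mice (edgeR adjusted p = 0.649), and Htra3 likewise (0.412 with DESeq2 and 0.111 in edgeR without these mice).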

How the data were processed

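The deposited table holds read counts per captured region for 48 libraries, as whole numbers that the authors did not normalise, and a deposited peak list gives the authors' score of each region. Per the submitters' processing notes, the tools were Trim Galore 0.3.7, cutadapt 1.4.2, MACS2 and featureCounts, with build mm10. Not given in the sources used here are the aligner, the treatment of duplicate and multiply matching reads, and the libraries used for peak calling. Every region name starts with GermFree. Whether the list lacks places captured mainly in ConvR mice was not tested.

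Groups, sections and mouse numbers came from the sample characteristics. Counts of the 12 jejunum libraries were tested with edgeR 4.0.16 (R 4.3.3, limma 3.58.1), with TMM scaling and Benjamini-Hochberg adjustment at 0.05. Its default count filter by group came first, which asks for a minimum count of 10 in enough libraries and not for a mean. The difference between sections was tested in 1 fit of 48 libraries. DESeq2 1.42.0, other filters and scalings, replicate blocks and left-out mice were alternatives. Each mouse is 1 replicate. Same-numbered mice of the 2 models did not deviate together (r -0.02 to 0.01), nor did those sharing a title code (r -0.02 to 0.04), so the models were compared unpaired. Shares were compared by exact permutation over 792 relabellings. On simulated data 12.1%, 82.5% and 100% of regions changed by log2 0.5, 1 and 2 were called in the jejunum comparison, with 6 false calls among 80925 unchanged regions (81125 in all). The changed regions were drawn only from those with a mean of at least 10 counts, and all regions had the same dispersion. These rates therefore may not hold for sparser regions or for regions that vary more between mice.

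A region was assigned to genes it overlapped or lay within 5 kb of, otherwise to the nearest within 50 kb. Named regions were, among those that passed, the 12 largest differences in each direction, the 3 with the smallest p in each stretch, and the passing members of 29 gene lists, or the 2 members with the smallest p where none passed. Erdr1, Mid1, St6galnac1, Mup17, Slc37a3, Ceacam15, Ceacam-ps1, Epha4, Hap1, Htra3, Tmem67, Sos2, Ppp2r2b, Ybx3, Pxmp4, Gm6600, LOC115490339, Gm27047 and the transfer RNA genes lie outside this rule and were chosen after their values were seen. The gene lists, stretches and comparisons were chosen with earlier results of these data known. Figures were drawn with Matplotlib 3.10.9 (Python 3.11.15, pandas 2.3.3, NumPy 2.4.6).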

Additional observations from a re-analysis of the deposited data

Results flagged for a closer look

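In 118 groups of mice checked, 11 held a mouse far from the others of its model. Chance flags about 1 in 20 groups of independent, unselected values. The groups here include regions picked for their difference and come from the same 12 mice, so that rate is no measure for the 11. GermFree mouse 2 stood above the other 6 GermFree mice in 7 of these 11 groups. It had 21.3 CPM in a region of chromosome 11 without a gene within 50 kb (others 3.51 to 7.17) and 27.1 CPM near Zcchc14 (others 2.63 to 6.30). It had 16.8 CPM at Gm34259 (others 3.07 to 5.79) and 31.7 CPM at Rn7s2 (others 5.26 to 13.02). It had 20.04 CPM at Acacb (others 4.38 to 10.1), 12.3 CPM at Cacng2 (others 2.52 to 5.26) and 14.2 CPM near Gm41844 (others 5.26 to 7.34). All 7 are among the 16 lower regions in which ConvR mice 1 and 3 were highest. GermFree mouse 7 stood above its model near Btbd35f26, with 11.4 CPM (others 4.03 to 6.72), and GermFree mouse 3 at Gm46188, with 25.1 CPM (others 9.86 to 15.5). Among ConvR mice, mouse 3 was high at Scaf8, with 18.4 CPM (others 4.14 to 7.88), and mouse 5 low at Klra9, with 151 CPM (others 206 to 216).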

How the results depend on the processing

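The 281 regions that passed numbered 147 with DESeq2, 179 in 1 fit of all 48 libraries and 122 on autosomes only, and 239 to 297 when 1 mouse was left out. The higher ones numbered 143 with DESeq2 and 95 on autosomes only, and 207 to 257 with 1 mouse left out. The 32 lower regions numbered 4 with DESeq2, 6 in the fit of all 48 libraries, 16 without ConvR mice 1 and 3, and 17 to 46 with 1 mouse left out (21 without ConvR mouse 1 and 17 without ConvR mouse 3). With the mouse number as a replicate block they numbered 16 (14 in the same mice 1 to 5 without the block, a setting added after seeing the data), and 19 with the title code as a block. The block by number, which leaves out GermFree mice 6 and 7, gave 194 passing regions in all, against 199 in the same mice without the block, and the block by title code gave 225. Without ConvR mice 1 and 3 the log2 difference turned positive at Zcchc14 (0.45), Gm34259 (0.21), Rn7s2 (0.13) and Auts2 (0.21). The X share differed by 0.232 to 0.3004 percentage points with 1 mouse left out, and lost its call without ConvR mouse 1, 3, 4 or 5 (0.263, 0.26, 0.270 and 0.248 points). Of 45 named passing regions 23 kept their call in every alternative that tested them, and 22 lost it in at least 1, most often with DESeq2 (21). Some regions were not tested in every alternative, such as those of the X and Y chromosomes in the fit of autosomes only. The causes were not tested. In simulated counts for the jejunum comparison, with the same dispersion for all regions, 12.1% of log2 changes of 0.5 were called.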
